A study of Mus musculus with 4 samples.

Results

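The genes described here are 32 genes of glycolysis and of the response to low oxygen, chosen by symbol from a list of enzymes, transporters and targets of the hypoxia-inducible factor HIF. They took 33 of the 31247 rows of the count table, because Aldoa is the name of 2 rows, and all 33 rows were deep enough to be tested. They were read as 17 glycolytic enzymes (18 rows) and 15 other genes, namely transporters, further HIF targets and Hif1a itself. RNA came from Pdgfrb-GFP positive cells, called myofibroblasts in the labels, which were isolated by FACS from postnatal day 7 mouse lungs. The 2 wild-type (WT) libraries came from mice labelled Wild type PDGFRb-GFP. The 2 conditional knockout (CKO) libraries came from mice labelled with Tbx4-rtTA and Tet-O-Cre beside PDGFRb-GFP, and with Dnmt1-D/D as the state of Dnmt1, the maintenance DNA methyltransferase. Both genotypes carry 1 copy of the Pdgfrb-GFP reporter, and the WT label names neither Tbx4-rtTA nor Tet-O-Cre, so an effect of those transgenes and the loss of Dnmt1 cannot be told apart. Tbx4-rtTA is driven by a Tbx4 regulatory sequence active in lung mesenchyme, and rtTA switches on Tet-O-Cre when doxycycline is given.

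Glycolysis splits glucose into pyruvate and needs no oxygen, and lactate dehydrogenase then turns pyruvate into lactate, which leaves the cell through monocarboxylate transporters. HIF is a pair of proteins whose alpha subunit is hydroxylated by the Egln enzymes when oxygen is present and is then destroyed. When oxygen is low the alpha subunit escapes, binds DNA at a core of the letters ACGTG or GCGTG, and raises glucose transporters, most glycolytic enzymes, Vegfa and genes that limit the use of pyruvate by mitochondria. The core holds a CpG, the dinucleotide that Dnmt1 keeps methylated, and HIF is known to bind the methylated core poorly. Because HIF is controlled mainly as a protein, the RNA level of Hif1a does not report its activity.

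The libraries are named by genotype and a letter in column order, which carries no pairing. They held 23071657 to 26420648 counted reads, so that 1 read was 0.0378 to 0.0433 CPM, the count scaled to a common library size of 1e+06 reads. Levels are given in CPM after TMM scaling between libraries. Dnmt1 RNA stood at 144 (WT A) and 115 (WT B) against 78.1 (CKO A) and 29.5 CPM (CKO B). Its fall did not pass the test (log2 change -1.27 ± 0.57 SE, edgeR adjusted p = 0.310), and counts are summed over the whole gene, so reads outside a deleted part are included. In the authors' deposited table the log2 fold change of Dnmt1 was -1.23, with an adjusted p of 0.0290. CKO A was the library with reads of Y-linked Ddx3y (2494 against 0 in each of the others), so Y-linked RNA differed within CKO. All count columns but that of WT A open with the same number, and what it marks is not given in the sources used here. The fit without WT A is therefore the comparison within that number, with 1 WT library. The sorted cells expressed their lung mesenchyme markers, 12 of 12 in each library, with a summed level of 73212 to 73263 CPM in WT and 81715 to 91776 in CKO. The markers did not move together, with 7 log2 changes above 0 and 5 below. In edgeR 0 of the 12 were called, and at an unadjusted p under 0.05 there were 2 higher and 4 lower. For these and the other marker lists, the shares over all 15210 tested genes were 7.61% called (adjusted p under 0.05) and 25.2% at that unadjusted p. Immune markers (6 of 13 tested higher) summed to 38.3 and 52.1 CPM in WT and to 90.6 and 62.4 in CKO, and of their 16 rows at most 1 was at 0 in any library. Erythroid markers (2 of 5 tested lower, both globin genes) summed to 23.4 and 30.5 CPM in WT and to 14.3 and 7.64 in CKO, and of their 7 rows at most 1 was at 0. Endothelial markers (1 of 12 higher) summed to 178 and 222 CPM in WT and to 299.5 in CKO A, with CKO B between the WT libraries, and epithelial markers (0 of 12 called in edgeR, 0 at an unadjusted p under 0.05) to 62.2 and 191 and to 153 and 82.1. No row of these 2 lists was at 0. The part of these cells in the results below was not tested, and fewer cells of a type cannot be told apart from less RNA per cell in bulk samples.

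The glycolytic enzymes Gpi1, Aldoa and Gapdh and the HIF target Ndrg1 rose in CKO, while Car9, another HIF target, fell. These 5 of 33 rows (15.2%) passed edgeR's quasi-likelihood test at an adjusted p under 0.05, where 7.61% of the 15210 tested genes passed. The members were chosen with earlier results of these data known, so shares and medians above those of all genes can come from that choice alone. The 4 members that rose stand beside 4.85% of all genes called higher, and the 1 that fell beside 2.75% called lower. Of the enzymes 3 of 18 rows were higher and 0 lower, and of the other genes 1 of 15 was higher and 1 lower. The median log2 change was 0.20 for the enzymes and 0.20 for the other genes, against -0.01 for all tested genes. At an unadjusted p under 0.05 there were 14 members (42.4%), 10 higher and 4 lower, where 25.2% of all genes reached it. CKO and WT levels did not overlap for 26 of the 33 rows (78.8%), 18 with CKO above, where 57.1% of all genes did not overlap. All of these changes were moderate, and apart from Aldoc, Car9 and Ankrd37 no member moved by more than 1 on the log2 scale.

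**Figure D1:**
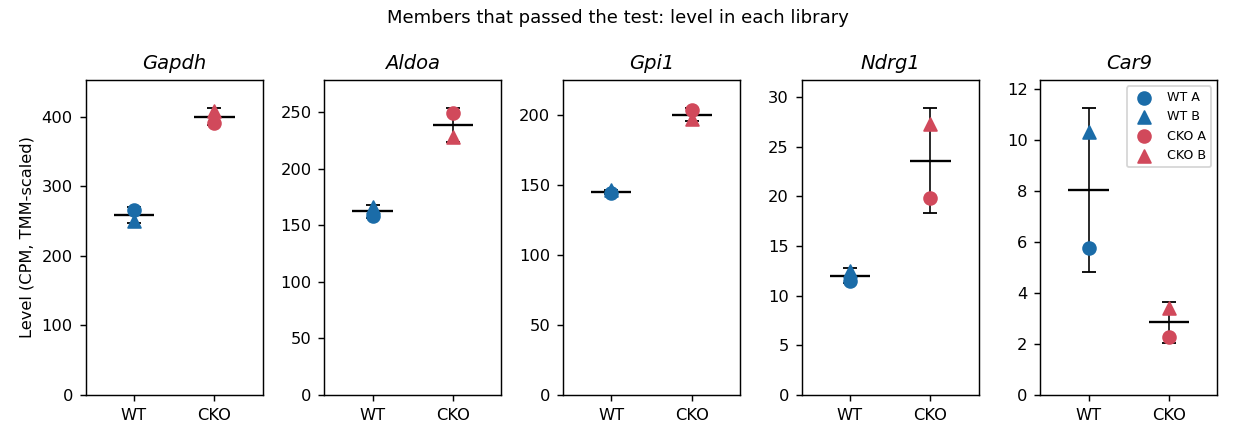
Level of the 5 members that passed the test, in CPM scaled by TMM, by genotype, with 1 panel per gene and axes that start at 0. Points are libraries, and bars give the mean and SD (n = 2 per genotype); Gapdh, Aldoa, Gpi1 and Ndrg1 have both CKO points above both WT points, and Car9 has them below.

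**Figure D2:**
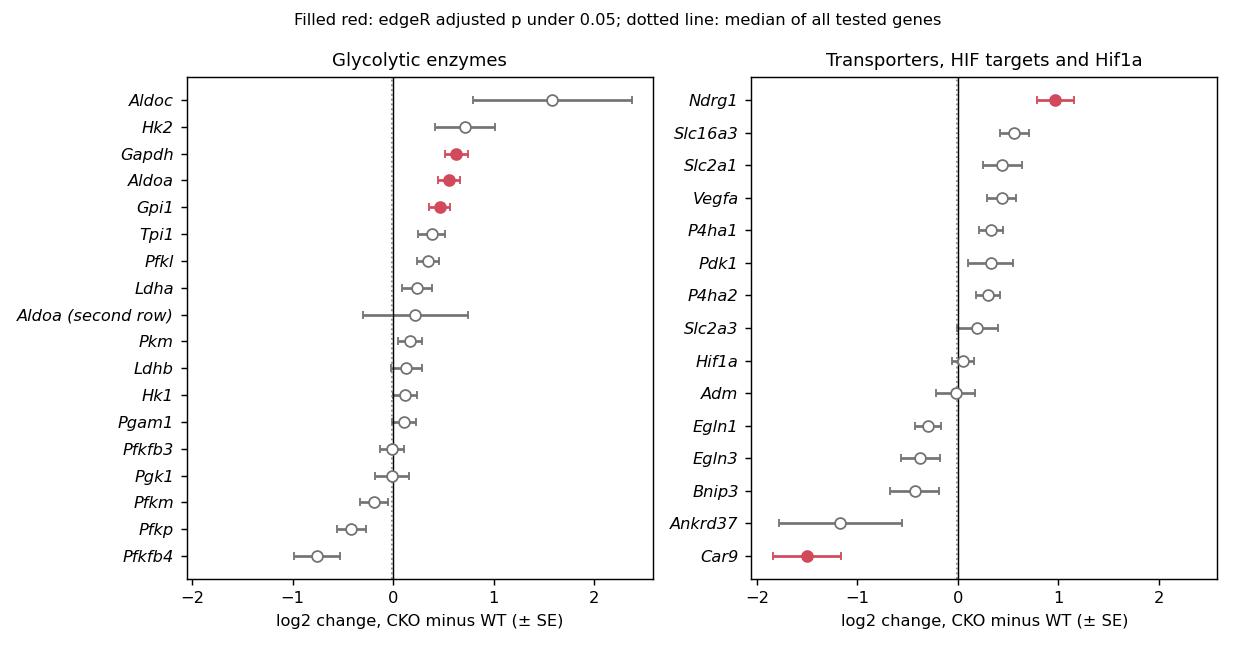
Log2 change of CKO minus WT with its SE for all 33 member rows, enzymes on the left and the other genes on the right, ordered by size. Most enzymes lie above 0 (13 of 18 rows), with Pfkp and Pfkfb4 lowest, and the other genes run from Car9 at -1.501 to Ndrg1 at 0.97.

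Among the enzymes, Gpi1, which turns glucose 6-phosphate into fructose 6-phosphate, had 144 and 146 CPM in the WT libraries and 203 (CKO A) and 197 (CKO B) in the knockouts. The replicates lay close together and the groups far apart, 1.38-fold higher in CKO (log2 change 0.46 ± 0.11 SE, n = 2 per genotype, edgeR adjusted p = 0.0381). Aldoa, the aldolase that splits fructose 1,6-bisphosphate into trioses, was at 158 (WT A) and 166 CPM (WT B), against 249 (CKO A) and 228 (CKO B). It was 1.47-fold higher (log2 change 0.56 ± 0.11 SE, adjusted p = 0.0250). The second row named Aldoa, an upstream gene model on the same strand, had 10 to 22 reads per library and no call (adjusted p = 0.829).

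Gapdh, which oxidises glyceraldehyde 3-phosphate and is often used as a reference gene, had the lowest p of the enzymes. Its WT levels were 266 (WT A) and 250 CPM (WT B), and its CKO levels 391 (CKO A) and 408 (CKO B). The groups did not overlap, at means of 258 ± 11.7 and 400 ± 12.2 CPM (SD, n = 2). It was 1.55-fold higher (log2 change 0.63 ± 0.12 SE, adjusted p = 0.0182). Gapdh has many processed pseudogenes, and 92 annotated genes share at least 95% identity with it over at least 100 bases that make up at least 50% of their own transcript. They held 1832 reads in all, 5.35% of the reads on Gapdh and these copies together, and how reads that match several places were counted is not given in the sources used here. Most of those reads lay on Gm13394, a processed pseudogene with 304, 365 and 539 reads in WT A, WT B and CKO A and 0 in CKO B. With the reads of all copies added, Gapdh was still higher in CKO (log2 change 0.58, adjusted p = 0.0234). Gpi1 had 1 such copy with 33 reads and Aldoa none.

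Leaving out either WT library leaves 1 in that group, and such fits also called fewer genes among all those tested. The 3 called enzymes lost their calls in both of these fits. Without WT A their adjusted p-values were 0.0826 (Gapdh), 0.146 (Aldoa) and 0.194 (Gpi1), and without WT B 0.149, 0.120 and 0.198, so that 0 enzymes passed in either fit. Gpi1 also missed the threshold without CKO B (adjusted p = 0.0514). The sizes hardly moved, with log2 changes of 0.59 to 0.69 for Gapdh, 0.52 to 0.63 for Aldoa and 0.47 to 0.50 for Gpi1 when each library was left out in turn. In the authors' deposited table the log2 fold changes were 0.67 for Gapdh, 0.60 for Aldoa and 0.50 for Gpi1, with adjusted p-values of 0.00156, 0.00720 and 0.0328.

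**Figure D3:**
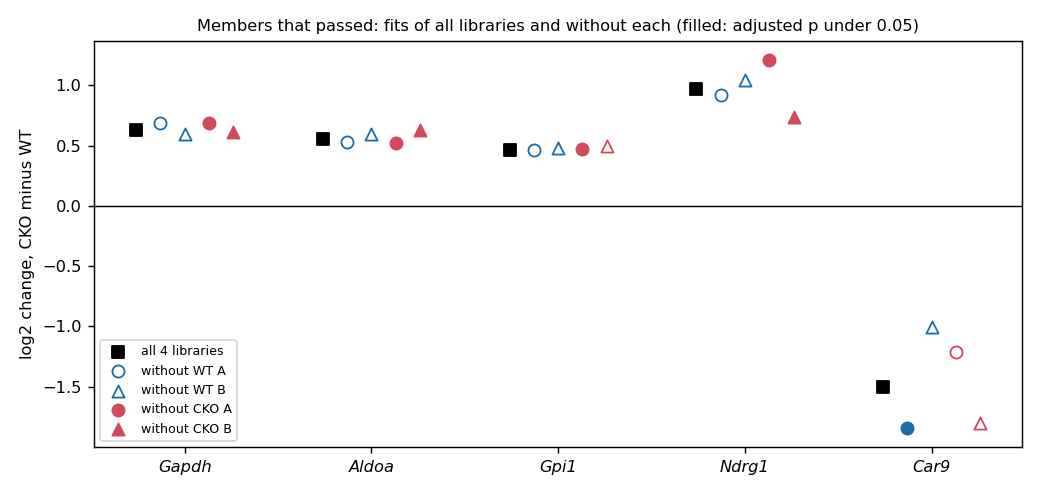
Log2 change of CKO minus WT for the 5 members that passed, from the fit of all 4 libraries and from fits that leave out 1 library. Filled symbols have an edgeR adjusted p under 0.05; the 3 enzymes keep their size in every fit but lose the call without either WT library, and Car9 ranges from -1.85 to -1.01.

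The upstream sequences of the called genes are shown because HIF cores and CpG sites can be read in them. They come from RefSeq promoter windows (250 bases before to 50 after the start, GRCm38.p6) and are cut to bases that hold no exon in GENCODE M21. Capitals mark ACGTG or GCGTG on either strand. Ndrg1 has no entry and is named only. The stretches are Gapdh at chr6:125165774-125166023 (minus strand), Aldoa at chr7:126799255-126799504 (minus strand, 1 of 3 Aldoa windows), Gpi1 at chr7:34230337-34230419 (minus strand) and Car9 at chr4:43506776-43506965 (plus strand).
Gapdh: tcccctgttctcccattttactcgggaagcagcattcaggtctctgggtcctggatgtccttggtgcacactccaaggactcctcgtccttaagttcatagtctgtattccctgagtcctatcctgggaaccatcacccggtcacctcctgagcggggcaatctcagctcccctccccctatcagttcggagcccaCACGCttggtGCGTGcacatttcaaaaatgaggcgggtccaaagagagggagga
Aldoa: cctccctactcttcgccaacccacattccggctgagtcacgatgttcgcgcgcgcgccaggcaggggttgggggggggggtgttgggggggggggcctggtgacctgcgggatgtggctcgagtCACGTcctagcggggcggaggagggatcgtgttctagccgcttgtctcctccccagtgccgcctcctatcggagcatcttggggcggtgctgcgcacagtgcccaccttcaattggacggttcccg
Gpi1: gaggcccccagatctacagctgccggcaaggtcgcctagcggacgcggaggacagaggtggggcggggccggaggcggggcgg
Car9: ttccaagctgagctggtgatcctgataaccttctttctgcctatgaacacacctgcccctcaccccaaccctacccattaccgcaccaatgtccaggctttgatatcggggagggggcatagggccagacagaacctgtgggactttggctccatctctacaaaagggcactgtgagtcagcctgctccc
The Gapdh stretch holds 8 CpG dinucleotides and 2 cores, 54 and 44 bases before the start, and the Aldoa stretch holds 21 CpG and 1 core. Outside its stretch, the Gapdh window holds 1 ACGTG on the opposite strand, at base 43 counted from the start. Gpi1 shows 9 CpG in 83 bases and no core. Car9 shows 2 CpG in 190 bases and no core in the stretch, although its whole window holds 1 ACGTG on the opposite strand, 18 bases before the start. Over the 30 members with an entry, 34 of 42 windows (81.0%) hold either core, against 43.8% of all 32851 windows, with ACGTG in 59.5% against 19.6% and GCGTG in 54.8% against 32.4%. Both strands were searched, and a CACGTG counts once on each strand. Genes with several starts count once per window. By gene, 28 of the 30 members hold either core, against 12628 of 27025 genes. The members were picked as glycolytic genes and HIF targets, so more cores than in all windows can come from that choice alone. The member windows are also richer in CpG, with a median of 20 against 7, and both cores contain a CpG. These are letter matches in the windows and not measured sites, and methylation was not measured in these libraries.

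The other enzymes did not pass the test, and their log2 changes lay on both sides of 0. Pfkl, the liver-type phosphofructokinase, was at 39.4 (WT A) and 39.9 CPM (WT B), against 51.4 (CKO A) and 49.5 (CKO B) (adjusted p = 0.0931). Pfkp, the platelet type, had the opposite sign, with 70.9 and 87.3 CPM in WT and 64.1 and 54.5 in CKO (adjusted p = 0.123). Pfkm, the muscle type, was at 52.3 and 50.5 CPM in WT and 50.4 and 39.9 in CKO. Neither Pfkl nor Pfkp overlapped between genotypes, and they did so in opposite directions. Per kilobase of merged exon, Pfkm ranked highest of these isozymes. It held 58.3% and 54.8% of their summed level in WT and 54.7% and 51.0% in CKO. The share of Pfkl was 22.0% and 21.6% in WT and 27.9% and 31.7% in CKO, and that of Pfkp 19.7% and 23.6% in WT and 17.4% in each CKO library. No test of these shares was run, with 2 libraries per genotype. They depend on the merged exons of all isoforms, 13401 bases for Pfkp, 6675 for Pfkl and 3340 for Pfkm. In CPM, Pfkp was the highest of these isozymes in each library, so which isozyme has the most transcripts is not settled here.

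Tpi1, the triose phosphate isomerase, was at 87.7 and 89.1 CPM in WT and at 128 and 103 in CKO (log2 change 0.38 ± 0.13 SE, adjusted p = 0.121). Both CKO libraries lay above WT, CKO A by far the more, and without CKO B the change passed (log2 0.54, adjusted p = 0.0375). Hk2, the inducible hexokinase that binds mitochondria, had its higher CKO level in the other library, with 16.8 and 19.9 CPM in WT, 21.2 in CKO A and 39.1 in CKO B. CKO A was hardly above WT, and Hk2 passed only without CKO A among the left-out libraries (log2 1.118, adjusted p = 0.000425). With all 4 libraries its log2 change was 0.71 ± 0.30 (adjusted p = 0.215). Hk1, the constitutive hexokinase, was more abundant per length than Hk2 in each library, and its share of the pair was 73.5%, 71.5% and 72.6% in WT A, WT B and CKO A but 55.6% in CKO B.

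Pfkfb4, which sets the level of the phosphofructokinase activator fructose 2,6-bisphosphate, was at 8.43 and 10.6 CPM in WT and at 6.51 and 4.70 in CKO. Those groups did not overlap, at a log2 change of -0.76 ± 0.23 (adjusted p = 0.0880), and it passed without CKO A (log2 -0.99, adjusted p = 0.0269). Its relative Pfkfb3 had similar levels, with 36.4 and 37.3 CPM in WT and 34.1 and 39.0 in CKO. The other late enzymes also showed small differences. Ldha, the muscle-type lactate dehydrogenase subunit and the most abundant enzyme per length, was at 364 and 394 CPM in WT and at 506 and 389 in CKO, so that its groups overlapped. Its log2 change was 0.24 ± 0.15 (adjusted p = 0.364). Pkm, pyruvate kinase, was at 324 and 310 CPM in WT and 379 and 333 in CKO, and it shares 15.3% of its exon bases with Gm49759, an unclassified gene model on the same strand. X-linked Pgk1 had 29.8 and 32.7 CPM in WT and 36.1 and 25.8 in CKO, with the highest and the lowest value both in CKO. It has 4 near-identical copies with 1 read in all, among them Pgk1-rs7 at 100% identity over 1255 bases. Reads that match both places may be missing from the Pgk1 count, which was not tested. Pgam1, Ldhb and Hk1 had log2 changes of 0.11 to 0.13, with adjusted p-values of 0.587 to 0.642. Aldoc, the brain-type aldolase, had 7, 11, 48 and 8 reads in WT A, WT B, CKO A and CKO B, so its log2 change of 1.58 rested on CKO A and was -0.04 without it.

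Summed over the 18 rows, the enzymes took 1711 and 1751 CPM in WT and 2255 and 2027 in CKO. Per kilobase of exon, Ldha led in WT with a mean of 114 CPM per kilobase, followed by Pkm at 63.4, Gapdh at 62.5 and Aldoa at 55.7. In CKO the order was Ldha at 135, Gapdh at 96.7, Aldoa at 81.9 and Pkm at 71.2. Pkm and Gapdh did not differ beyond their spread in WT. Aldoc was lowest in both genotypes (0.111 and 0.333), and the hexokinases and phosphofructokinases, the controlled early steps, lay between 3.07 and 15.4 in WT. The order per kilobase depends on merged exons of all isoforms, 4133 bases for Gapdh, 3310 for Ldha, 5001 for Pkm and 2911 for Aldoa. In CPM, Pkm stood above Aldoa in CKO (356 against 238), and Gapdh above Ldha in CKO B (408 against 389). Gapdh reads that also match its 92 copies may be missing from its count, since their treatment is not given.

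**Figure D4:**
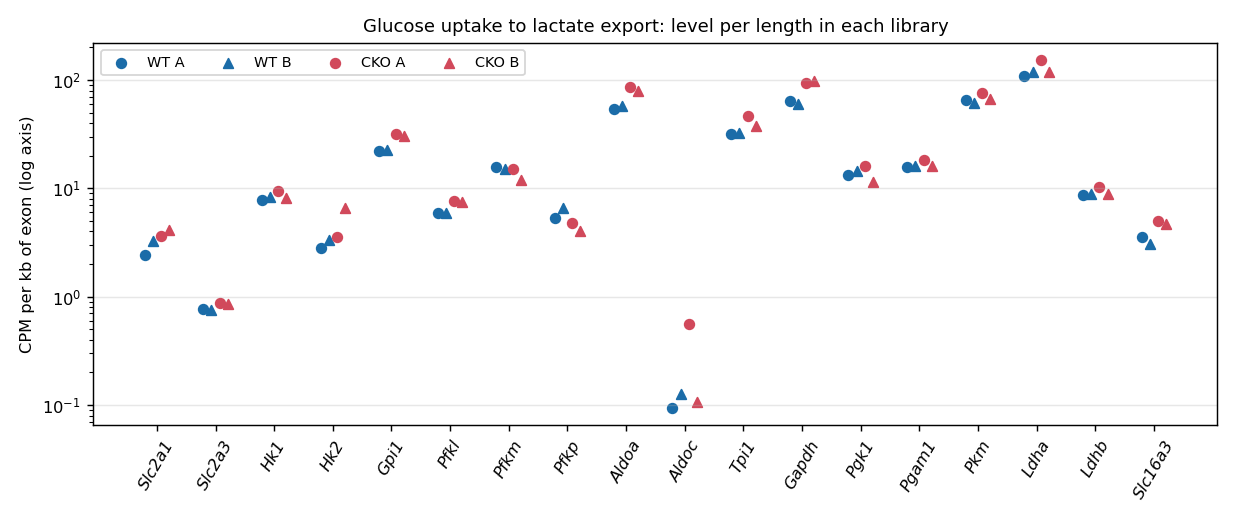
Level per kilobase of exon (log axis) of transporters and enzymes in pathway order, from glucose uptake to lactate export, with 1 point per library. Gpi1, Aldoa and Gapdh stand higher in both CKO libraries, Pfkp lower in both, and Ldha is highest in each library. Lengths are merged exons of all isoforms, so the order between genes depends on them.

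Among the transporters, Slc16a3, the lactate exporter MCT4, came closest to the threshold. It was at 18.9 (WT A) and 16.1 CPM (WT B), against 26.8 (CKO A) and 24.9 (CKO B), with no overlap. Its log2 change was 0.56 ± 0.14 SE (adjusted p = 0.0518), and it passed without CKO B (log2 0.63, adjusted p = 0.0478). Slc2a1, the glucose transporter GLUT1, was at 8.56 and 11.5 CPM in WT and 12.9 and 14.4 in CKO (adjusted p = 0.199). Slc2a3, GLUT3, held 5.53 and 5.47 CPM in WT and 6.39 and 6.21 in CKO. For all 3 the lower CKO level exceeded the higher WT level, but none passed in the fit of all libraries (Slc2a3, edgeR adjusted p = 0.592). Of all tested genes 57.1% did not overlap, 4216 of 15210 with CKO above. Per length Slc2a1 made up 76.2% to 82.7% of the 2 glucose transporters.

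Ndrg1, a stress-responsive gene long used as a marker of HIF activity, showed the largest rise that passed among the 33 member rows. It was found at 11.5 (WT A) and 12.5 CPM (WT B) and at 19.9 (CKO A) and 27.3 (CKO B), 1.96-fold higher (log2 change 0.97 ± 0.18 SE, adjusted p = 0.0201). The WT libraries lay close together, and CKO B lay farther from them than CKO A. The call was lost without WT A (adjusted p = 0.0766) and without WT B (0.0873), at log2 changes of 0.92 and 1.05. Ndrg1 lies on chromosome 15, 66929318 to 66969640 (GRCm38, minus strand), and the antisense models over its exons had 1 read.

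Car9, the membrane carbonic anhydrase regarded as one of the most HIF-specific targets, fell. It had 131 (WT A) and 273 reads (WT B) against 60 (CKO A) and 79 (CKO B), which is 5.75, 10.3, 2.28 and 3.41 CPM. Both CKO libraries lay below WT, but the WT libraries themselves differed widely, with a mean of 8.02 ± 3.21 CPM against 2.85 ± 0.795 in CKO (SD, n = 2). The fall was 2.83-fold (log2 change -1.501 ± 0.34 SE, edgeR adjusted p = 0.0416). In the authors' deposited table its log2 fold change was -1.46, with an adjusted p of 0.00852. In the fits made here it missed the threshold in limma-voom (adjusted p = 0.0647), with RLE size factors (0.0511) and over genes with a mean CPM of at least 1 (0.0542). It passed in DESeq2 (0.00665), and in edgeR with library size alone (0.0339) and with no filter on low counts (4.24e-06). Leaving out WT B gave a log2 change of -1.01 (adjusted p = 0.256), leaving out CKO A -1.21 (0.113) and leaving out CKO B -1.80 (0.0535), while it passed without WT A (-1.85, 0.0114). The antisense gene Gm12454, which overlaps 9.29% of the Car9 exon bases, had 58 and 96 reads in WT and 25 and 17 in CKO. No source used here states whether counting used strand, and without strand the reads of the pair cannot be told apart. Car9 lies on chromosome 4, 43506966 to 43513729 (GRCm38, plus strand).

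The secreted and matrix-related targets did not pass the test. Vegfa, the endothelial growth factor, was at 139 and 124 CPM in WT and at 157 and 199.5 in CKO (log2 change 0.44 ± 0.14 SE, adjusted p = 0.102). It passed without CKO A (log2 0.63, adjusted p = 0.0116). P4ha1 and P4ha2, alpha subunits of the prolyl hydroxylase that stabilises collagen, had log2 changes of 0.33 and 0.30. P4ha1 was at 63.9 and 72.1 CPM in WT and 85.5 in each CKO library, and P4ha2 at 36.1 and 40.9 in WT and 46.6 and 48.3 in CKO (adjusted p = 0.127 and 0.160). The share of P4ha1 in their summed level per length lay between 72.8% and 73.5% in the 4 libraries. Adm, the vasodilator peptide adrenomedullin, was level at 7.46 to 8.98 CPM.

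The feedback and mitochondrial targets did not pass either. Egln1, the main oxygen sensor that marks HIF alpha for destruction, was at 92.5 and 89.0 CPM in WT and 80.8 and 66.9 in CKO (log2 change -0.30 ± 0.13 SE, adjusted p = 0.194). Egln3, a HIF-induced relative of Egln1, was at 61.5 and 53.8 CPM in WT, 53.4 in CKO A and 35.5 in CKO B. Only CKO B stood well apart, and Egln3 passed without CKO A (log2 -0.67, adjusted p = 0.00886). Bnip3, which directs mitochondria to autophagy, was at 5.49 and 7.20 CPM in WT and 5.25 and 4.18 in CKO (adjusted p = 0.319). Pdk1, which shuts off pyruvate dehydrogenase, was at 5.18 and 4.45 CPM in WT and 6.51 and 5.57 in CKO (adjusted p = 0.405). Ankrd37, an ankyrin repeat gene induced by HIF in other cells, had 12, 13, 5 and 6 reads and no call. Hif1a itself was level, at 87.8 and 90.5 CPM in WT and 90.6 and 94.1 in CKO (log2 change 0.05 ± 0.11 SE, adjusted p = 0.811). Of the 15 transporters, targets and Hif1a, 9 had log2 changes above 0 and 6 below.

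Neither CKO library was the more extreme for the members as a whole. CKO A lay farther from the WT mean for 17 of the 33 rows and CKO B for 16. Dnmt1 stood at 60.3% of its WT mean in CKO A and at 22.8% in CKO B, and a relation of the members to its level was not tested. Hk2, Ndrg1, Vegfa and Egln3 were farthest in CKO B, and Aldoc, Tpi1 and Ldha in CKO A. For Gapdh, CKO A stood at 152% and CKO B at 158% of the WT mean, for Gpi1 at 140% and 136%, and for Aldoa at 153% and 141%.

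Further genes of the pathway, listed beside the members, were read from the same fit. Of 28 tested glycolysis genes outside the members 3 rose and 0 fell in edgeR (10.7%, near the 7.61% called over all tested genes), with a median log2 change of 0.12. Slc16a1, the lactate transporter MCT1, was at 14.2 and 15.6 CPM in WT and at 25.6 and 28.6 in CKO, 1.82-fold higher (adjusted p = 0.0128). Eno3, the muscle enolase, rose 1.83-fold (adjusted p = 0.0407). Eno1, the common enolase, rose 1.53-fold, from 100.2 and 90.1 CPM in WT to 164 and 127 in CKO (adjusted p = 0.0444). Its near-identical copy Eno1b had 372 reads in the WT libraries and 5 in the CKO libraries, and the summed CPM of both genes was 1.42-fold higher in CKO. No gene of this list passed without WT A or without WT B.

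Of 39 further HIF targets tested, 6 rose and 2 fell (20.5% called, beside 7.61% of all tested genes), with a median log2 change of 0.15. Like the members, this list was chosen with earlier results of these data known. Ddit4, an inhibitor of mTORC1 that p53 and ATF4 also induce, was 2.56-fold higher (15.3 and 14.7 CPM in WT, 34.6 and 42.0 in CKO, adjusted p = 0.00340). Hmox1, the heme oxygenase also induced by oxidative stress and high in macrophages, was 2.77-fold higher (adjusted p = 0.00913). Stc2, a secreted stanniocalcin, rose 1.97-fold, and the transferrin receptor Tfrc 1.44-fold. The collagen lysyl hydroxylases Plod1 and Plod2 rose 1.497-fold and 1.53-fold, as enzymes of the same collagen-modifying kind as P4ha1 and P4ha2. Pgf, a relative of Vegfa, fell 1.68-fold (32.6 and 39.9 CPM in WT, 20.2 and 23.04 in CKO, adjusted p = 0.0226), and Zfp395 fell 1.49-fold (adjusted p = 0.0475). The count of called genes was 4 without WT A, 2 without WT B and 13 without CKO A.

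Of 16 tested HIF subunits and regulators 1 rose and 0 fell (6.25% called, beside 7.61% of all tested genes, with a median log2 change of 0.08). This was Siah2, a ubiquitin ligase that degrades Egln proteins, at 28.1 and 27.7 CPM in WT and 44.4 and 43.9 in CKO, 1.58-fold higher (adjusted p = 0.0135), and it did not pass without WT A or without WT B. Arnt, the beta partner of HIF, had a log2 change of 0.00, and Epas1, which encodes HIF-2 alpha, of 0.27 (adjusted p = 0.322). None of 15 genes for the entry of pyruvate into mitochondria passed in edgeR, DESeq2 or limma-voom (0 in each), 1 of them, Pdk2, being lower at an unadjusted p under 0.05, and their median log2 change was 0.04.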

How the data were processed

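RNA of 4 libraries was compared, 2 WT and 2 CKO. Per the file headers, the table deposited by the authors holds raw counts of reads for each gene and, for mutant against control, their log2 fold change with its p-value and FDR; their results are quoted only where named. The submitters' processing notes list edgeR 3.28.1, STAR, Trimmomatic 0.36, cutadapt 2.5 and FastQC 0.11.8, with GRCm38.p6. Which tool counted, whether by strand, and how it treated reads matching several places is not given in the sources used here. A further 4 columns of per-sample values were not used. Count columns named Control and Mutant were read as WT and CKO.

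The fit ran in R 4.3.3 with edgeR 4.0.16 over all genes, with filterByExpr (minimum count 10), TMM scaling and glmQLFit and glmQLFTest with robust dispersions. P-values were adjusted by Benjamini-Hochberg over the 15210 tested genes (threshold 0.05). Standard errors were taken as the size of the log2 change over the root of F. DESeq2 1.42.0 and limma-voom (limma 3.58.1) were alternatives. Levels per kilobase use the merged exons of GENCODE M21 (31171 of 31247 genes matched), since the deposited length was longer than these for every member. Copies were found with BLAST among GENCODE transcripts. Litters are not labelled, and the p-values therefore cover only how these 4 libraries spread. In WT that spread may be technical. Within CKO it also covers a difference between the cells sampled, with 2494 reads of Y-linked Ddx3y in CKO A and 0 in CKO B. To look for repeat deposits of 1 library, the counts of the libraries of each genotype were compared, and none were alike within counting noise (chi-square per degree of freedom 18.1 for WT and 32.4 for CKO).

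Members and lists were chosen with earlier results of these data known. Values in each library are given for members that passed, for those at an unadjusted p under 0.05 and for the most abundant of each role; of further lists the called genes are named if 8 or fewer. Other members were added after their values were seen, as were Eno1b, Ddx3y, Arnt and Epas1.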

Additional observations from a re-analysis of the deposited data

How the results depend on the processing

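The log2 changes of Gapdh, Aldoa, Gpi1, Ndrg1 and Car9 kept their direction in every alternative. The count of called enzymes was 3 in the fit of all libraries, 6 with no filter on low counts and 0 to 5 when each library was left out (0 without WT A and without WT B, 5 without CKO A). The count of other called members was 2, and 1 in limma-voom, 1 with RLE size factors, 1 with a mean CPM of at least 1, 4 with no filter and 0 to 3 with each library left out. The HIF subunits and regulators ran from 0 to 1 and the further glycolysis genes from 0 to 3 with each library left out, the latter numbering 8 with no filter. The further HIF targets numbered 5 in limma-voom, 13 with no filter and 2 to 13 with each library left out. Over all genes 2459 were called with no filter and 339 to 1842 with each library left out. The median of the enzymes ranged from 0.083 to 0.25 with each library left out, and that of the other members was 0.24 with no filter, 0.25 with a mean CPM of at least 1 and 0.20 to 0.23 with each library left out. DESeq2 moved the median of all genes it fitted, 31247 in place of 15210, to -0.12.

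Some members changed sign, none of them called in the fit of all libraries. Pfkfb3 was at 0.0064 in DESeq2, 0.00075 with RLE size factors, 0.027 with no filter, and from -0.10 to 0.11 with each library left out. Pgk1 was at 0.0039 in DESeq2 and 0.027 with no filter, and ran from -0.25 to 0.22; Adm was at 0.018 with no filter and ran from -0.14 to 0.13. Aldoc, at 1.58 with all libraries, ran from -0.041 (without CKO A, which held 48 of its 74 reads) to 2.33, and the second Aldoa row from -0.14 to 0.77. The cause of these shifts was not tested. With no filter Hk2, Tpi1, Pfkfb4, Slc16a3 and Vegfa also passed (adjusted p = 5.73e-05, 0.0283, 0.0317, 0.00388 and 0.00936). Adding the reads of near-identical copies, chosen after seeing the data, changed no call among the members. No paired analysis was possible because the count columns carry no replicate numbers. Aldoc and Ankrd37 rest on few reads (74 and 36 over the 4 libraries), and their standard errors were 0.79 and 0.61 on the log2 scale.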
